A study of Bos taurus with 2 samples.

Results

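Clusters 9 and 7 are the groups of cultured bovine satellite cells that the study named fibro-adipogenic because both were enriched in PDGFRA mRNA. It also drew on adipogenic regulators and lipogenesis terms in cluster 9. For neither cluster did it find enrichment of the myogenic markers MYOD1, MYF5, DES and MYOG. The clusters were compared here across all measured genes, with the adipogenic and lipid genes kept apart and given only as a count. The members were all cells whose cluster number in the deposited clustering was 9 or 7, which were 2378 of the 19096 cells called in the series. Cluster 9 held 1080 cells, 586 from replicate 1 and 494 from replicate 2. Cluster 7 held 1298 cells, 624 from replicate 1 and 674 from replicate 2.

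The cells came from the longissimus muscle of 1 Holstein bull calf aged 2 weeks, were released with pronase, separated by differential centrifugation and grown for a week in serum-containing medium with no further treatment. Replicates 1 and 2 are a pair of 10x Genomics libraries made from that single culture, so their spread is the spread of library preparation and says nothing of variation between animals. The authors clustered the cells of both libraries together into 15 clusters, and cells were not sorted beforehand. Every p below therefore compares library preparations of groups that had been drawn on the same counts.

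Fibro-adipogenic progenitors are mesenchymal cells that lie between muscle fibers and are usually recognized by the platelet-derived growth factor receptor PDGFRA. They do not form muscle fibers themselves. In muscle they are a source of collagen and other matrix proteins and of growth factors and cytokines, and they can become adipocytes or fibroblasts. Satellite cells and the myoblasts they give rise to are recognized instead by transcription factors such as PAX7, MYF5, MYOD1 and MYOG and, once they differentiate, by the proteins of the contractile apparatus.

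The clusters differed widely in depth. A cell of cluster 9 had a median of 22383 unique molecular identifiers (UMIs, counted molecules) in replicate 1 and 23601 in replicate 2. A cell of cluster 7 had a median of 1273 and 1534 UMIs. In cluster 7, 990 cells (76.3%) had fewer than 2000 UMIs, and no cell of cluster 9 did. After each cell was thinned to 1000 UMIs, which left out 177 and 113 cells of cluster 7, the median number of genes per cell was 646 and 644 in cluster 9 and 689 and 687 in cluster 7. Summed over cells, cluster 9 had 14198397 and 12183443 UMIs, and cluster 7 had 896608 and 1219037. Whether cluster 7 differs from cluster 9 because of what its cells expressed or because of how much and which RNA was captured from each cell cannot be told apart from totals alone, so levels are given as UMIs per 10000 UMIs of the same library and cluster, and other deep and shallow clusters are set beside them. The deep reference was 14343 cells of clusters 1 to 6, 8, 11 and 12, and the shallow reference was 1365 cells of clusters 13 to 15. Of the cells in clusters 9 and 7, 5 had a barcode that occurred in both libraries.

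**Figure D1:**
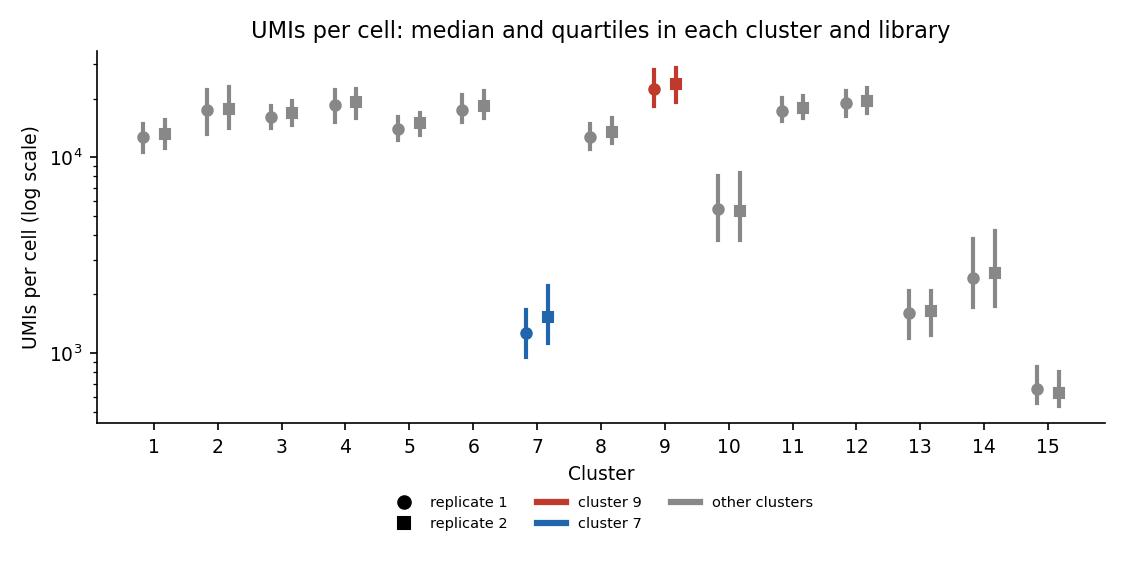
UMIs per cell (log axis) in each of the 15 clusters, with the point at the median and the bar from the lower to the upper quartile for each library. Cluster 9 sits at medians of 22383 and 23601, and cluster 7, at 1273 and 1534, lies with the shallow clusters 13 to 15.

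Both clusters carried mRNAs of secreted and surface proteins at higher levels than the other 13 clusters taken as a pool. Deep cells make up most of that pool. Of the 10 genes that stood highest above the other clusters in both, the 9 named here are INHBA, SFRP2, BGN, CD248, CCL2, CXCL5, PDGFRA, ITGA5 and FST, and since they were selected for that pattern they are described without a test against those clusters. INHBA, which encodes a subunit of activin, was at 3.8 and 3.39 UMIs per 10000 in cluster 9, 2.05 and 2.46 in cluster 7 and 0.0587 in the mean of the other clusters. The chemokine CXCL5 was at 8.60 and 8.92 in cluster 9, 2.14 and 3.55 in cluster 7 and 0.162 in the others. For both genes, each library of both clusters lay above the mean of the other clusters. The shallow cluster 13 lay between, with INHBA at 0.523 and 0.332 and CXCL5 at 0.872 and 0.569.

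PDGFRA was at 1.63 and 1.53 UMIs per 10000 in cluster 9, at 1.23 and 1.74 in cluster 7 and at 0.172 in the other clusters. The libraries of clusters 9 and 7 overlapped on this scale. The edgeR quasi-likelihood test with TMM normalization gave a log2 ratio of cluster 9 to cluster 7 of 0.58 (SE 0.17, adjusted p = 0.0181), and without TMM the ratio was 0.07 (adjusted p = 0.703), so no difference in PDGFRA held under both scalings. In cells thinned to 1000 UMIs, 16.9% and 16.8% of cluster 9 and 11% and 11.9% of cluster 7 had a PDGFRA UMI, against 1.24% and 1.42% in cluster 1 and 1.68% and 3.30% in the shallow cluster 13. Without thinning the shares were 91.1% and 92.5% in cluster 9, 13.3% and 17.4% in cluster 7, 15.4% and 16.2% in cluster 1 and 3.45% and 3.94% in cluster 13. Both clusters thus stood above these clusters in PDGFRA at equal depth.

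The markers of other cell types separated the clusters. MYOD1, the master regulator of the myogenic lineage, was at 0.678 and 0.464 in cluster 9 and at 2.69 and 2.23 in cluster 7, a log2 ratio of -1.59 (SE 0.21, adjusted p = 0.000924). The deep clusters had 4.52 and 4.25. DES, the muscle intermediate filament protein desmin, was at 0.968 and 0.813 in cluster 9 and at 6.17 and 4.91 in cluster 7 (log2 ratio -2.12, SE 0.14, adjusted p = 1.01e-05), and the deep clusters had 5.01 and 4.82. Of the 12 myogenic markers, 9 had counts enough to be tested. Of these, 8 were higher in cluster 7 and none in cluster 9, against shares of 26.6% in favor of cluster 7 and 29.7% in favor of cluster 9 over all 10785 genes tested at an adjusted p under 0.05. Their sum was 1.97 ± 0.384 (SD, n = 2 libraries) in cluster 9, 12.9 ± 1.27 in cluster 7 and 13.7 ± 0.34 in the deep clusters. In cluster 7 the myogenic sum was thus near that of the deep clusters, which include clusters 6 and 11 that had not been named myogenic, whereas in cluster 9 it was low. The members did not all match, since MYOD1 was lower in cluster 7 than in the deep clusters in both libraries. For DES the libraries of cluster 7 and of the deep clusters overlapped. The defining markers PTPRC of leukocytes and SOX10 of glial cells had 0 UMIs in both clusters, but other markers of these lists were called. CD68, the 1 leukocyte marker tested, was at 0.0218 and 0.0238 in cluster 9 and at 0.190 and 0.107 in cluster 7 on 17 and 13 UMIs (log2 ratio -2.14, adjusted p = 0.00134). Of 3 glial markers tested, NGFR and S100B were higher in cluster 9, the latter with adjusted p = 0.0681 when the library was a block, and ERBB3 was higher in cluster 7. The 1 epithelial marker tested, the cadherin CDH1, was at 0.0366 and 0.0230 in cluster 9, 1.03 and 0.788 in cluster 7 and 0.219 in the deep clusters (log2 ratio -4.37). Of 5 tested markers of tenocytes and of cartilage and bone cells, EGR1 and RUNX2 were higher in cluster 7 and SP7 in cluster 9, with sums of 1.30 and 1.23 in cluster 9 and 7.04 and 5.96 in cluster 7. EGR1, which is also given below as an immediate early gene, made up most of these sums, so they do not describe the markers as a group. None of the 10 endothelial markers reached the count needed for a test, and the summed level in the libraries ran from 0.0378 to 0.0558 UMIs per 10000 for the endothelial markers and from 0.0458 to 0.234 for the leukocyte markers. Of 5 tested pericyte and smooth muscle markers, DES, NOTCH3 and CSPG4 were higher in cluster 7 and CNN1 in cluster 9, and the sum was 9.06 ± 0.227 in cluster 9 and 17.9 ± 0.297 in cluster 7. This sum includes DES, which is also counted above as a myogenic marker. ACTA2, the smooth muscle actin, was at 6.06 and 6.48 in cluster 9 and 7.55 and 8.29 in cluster 7 and did not pass the test (log2 ratio 0.17, adjusted p = 0.157), and without TMM its ratio turned to -0.34 and passed (adjusted p = 0.0110). The part of such cells in cluster 7 was not tested.

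Because myogenic and fibro-adipogenic markers were both present in cluster 7, its cells were examined one by one. The share of each cell's UMIs was taken over 27 genes that were at least 8-fold higher in cluster 9 than in the deep clusters and had at least 0.5 UMIs per 10000 in cluster 9. Cluster 7 was not used to choose them. Among them were PDGFRA, INHBA, CXCL5, CCL2, BGN, ITGA5, SFRP2, CD248, THBS2, ENG and RSPO3, and 1 (ACSL5) was in the lipid list. The genes and the limits were set after the data had been seen, so the ranges below are descriptions and no test was made between them.

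In cluster 7, 930 cells (71.6%) had fewer than 20 UMIs of these genes per 10000, 96 cells (7.40%) had 20 to 40, and 272 cells (21.0%) had 40 or more. The ranges were filled alike in both libraries, with 457 and 473 cells in the lower range, 42 and 54 between, and 125 and 147 in the upper range. The counts did not fall off evenly. In bins that double in width, 31 and 30 cells had shares of 40 to 80, and 87 and 94 cells had shares of 80 to 160. Lower and upper cells had a similar depth, with medians of 1353 and 1599 UMIs, but a median of 1 and of 18 UMIs in the 27 genes. These are ranges of a score and not cell types, and the 96 cells between them belong to neither. In cluster 1, 2490 of 2493 cells were in the lower range, and in the shallow cluster 13, 538 of 602 cells (89.4%) were in it and 44 in the upper range. In cluster 9, from which the genes were taken, 881 cells (81.6%) were in the upper range, 192 between and 7 in the lower range.

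**Figure D2:**
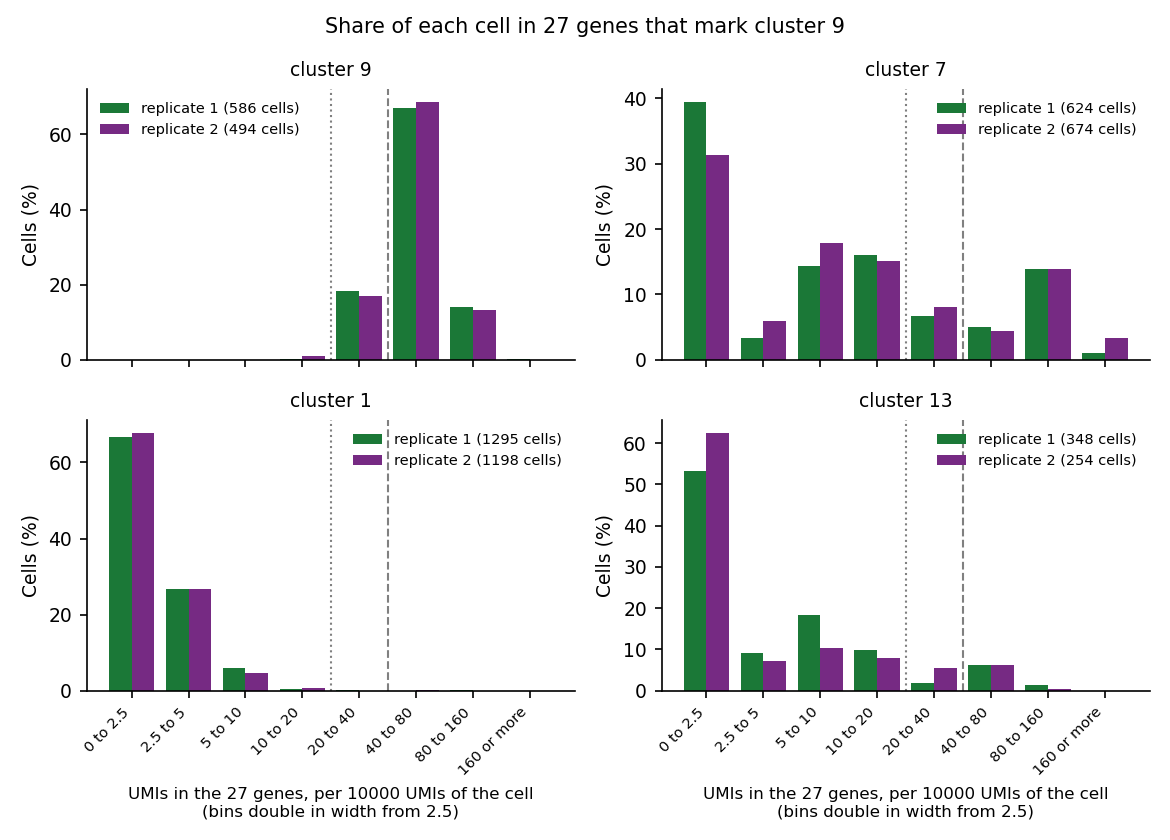
Percent of cells (vertical axis) by the UMIs that each cell had in the 27 genes, per 10000 of its UMIs (horizontal axis, bins doubling in width from 2.5), for clusters 7, 9, 13 and 1 and each library. Cluster 7 has a large group at low shares and a second rise at 80 to 160 in both libraries, whereas cluster 1 has 2490 of 2493 cells under 20.

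The ranges of cluster 7 divided some of the markers between them, but not all. For this comparison a gene that was in the set of 27 was left out of the share by which its own cells were split, which for PDGFRA gave 269 upper and 939 lower cells. PDGFRA was at 4.41 and 5.48 UMIs per 10000 in the upper range and at 0.274 and 0.430 in the lower range, while cluster 9 had 1.63 and 1.53. MYOD1 was at 0.461 and 0.513 in the upper range and at 3.41 and 2.96 in the lower range. Of all PDGFRA UMIs in cluster 7, 254 of 322 (78.9%) were in the upper range, and of all MYOD1 UMIs, 469 of 513 (91.4%) were in the lower range. The upper range held 24.0% of all UMIs of the cluster and the lower range 70.2%. Since the lower cells were selected for a low share of genes that were high in cluster 9 together with PDGFRA, low PDGFRA there is in part set by the selection. In these cells PDGFRA stood at 0.274 and 0.430 against 0.161 in each library of the deep clusters and DES, at 7.43 and 6.52, was above the 5.01 and 4.82 of the deep clusters. Stromal genes outside the set were present in them. The proteoglycan gene DCN was at 5.57 and 11 in the lower range, 10.8 and 14.5 in the upper range and 6.88 and 6.67 in the deep clusters. LUM was at 2.86 and 4.21 in the lower range, 3.74 and 6.34 in the upper range and 2.82 and 2.76 in the deep clusters. The fibro-adipogenic marker TCF7L2 was not divided, with 1.18 and 0.673 in the upper and 0.994 and 0.903 in the lower range. Further such markers had few UMIs in the upper and lower ranges, with 1 and 3 for OSR1, 0 and 1 for CD34, 5 and 1 for PDGFRB and 11 and 1 for MFAP5. PDGFRA in the lower range thus lay above the deep clusters and below cluster 9, and it is not used here to name the cells. Myogenic markers, which are not among the 27 genes, were mixed against the deep clusters. DES lay above them, MYOD1 lay below their 4.52 and 4.25, and MYF5, at 0.841 and 0.939, lay below their 1.09 and 1.02. MYOG was at 2.32 and 2.40 against 2.33 and 2.36. The ranges were compared in plain UMIs per 10000 and no other scaling was tried. Ribosomal protein genes took 944 UMIs per 10000 in the lower range and 2657 in the deep clusters. Whether the smaller differences from the deep clusters depend on the scaling was not tested. MYOD1, MYF5, MYOG and DES each lay above cluster 9 in both libraries, which goes against the name fibro-adipogenic. The fibro-adipogenic markers were divided. TCF7L2 lay above the 0.357 and 0.345 of cluster 9, as did COL1A1 and COL3A1, given below. PDGFRA lay below cluster 9, and the libraries of DCN and LUM overlapped with it. The cells are therefore called here the cells of the lower range of cluster 7 and given no type.

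Other genes followed the same division. INHBA and ITGA5 are among the genes used for the ranges. Even with the gene itself left out of the share, their direction is in part set by the selection. FN1 and NEB are not among the genes used for the ranges. INHBA was at 9.02 and 8.95 in the upper range and at 0.0459 and 0.120 in the lower range, and 449 of its 484 UMIs in cluster 7 (92.8%) were in upper cells. ITGA5, the integrin subunit that binds fibronectin, was at 33.4 and 28.9 in the upper range, 2.13 and 2.42 in the lower range and 4.43 and 4.85 in cluster 9. The upper range thus lay above cluster 9 and the lower range below it in both libraries. FN1, which encodes fibronectin, was at 49.0 and 45.4 in the upper range, 7.45 and 7.36 in the lower range and 6.34 and 6.72 in cluster 9. Nebulin (NEB), a giant protein of the thin filament, showed the opposite pattern, with 0.102 and 0.160 in the upper range, 13.7 and 12 in the lower range, 0.289 and 0.149 in cluster 9 and 2.69 and 2.56 in the deep clusters. Of the NEB UMIs in cluster 7, 1893 of 1921 (98.5%) were in lower cells. The upper range was thus as low in nebulin as cluster 9, and the lower range stood above the deep clusters.

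**Figure D3:**
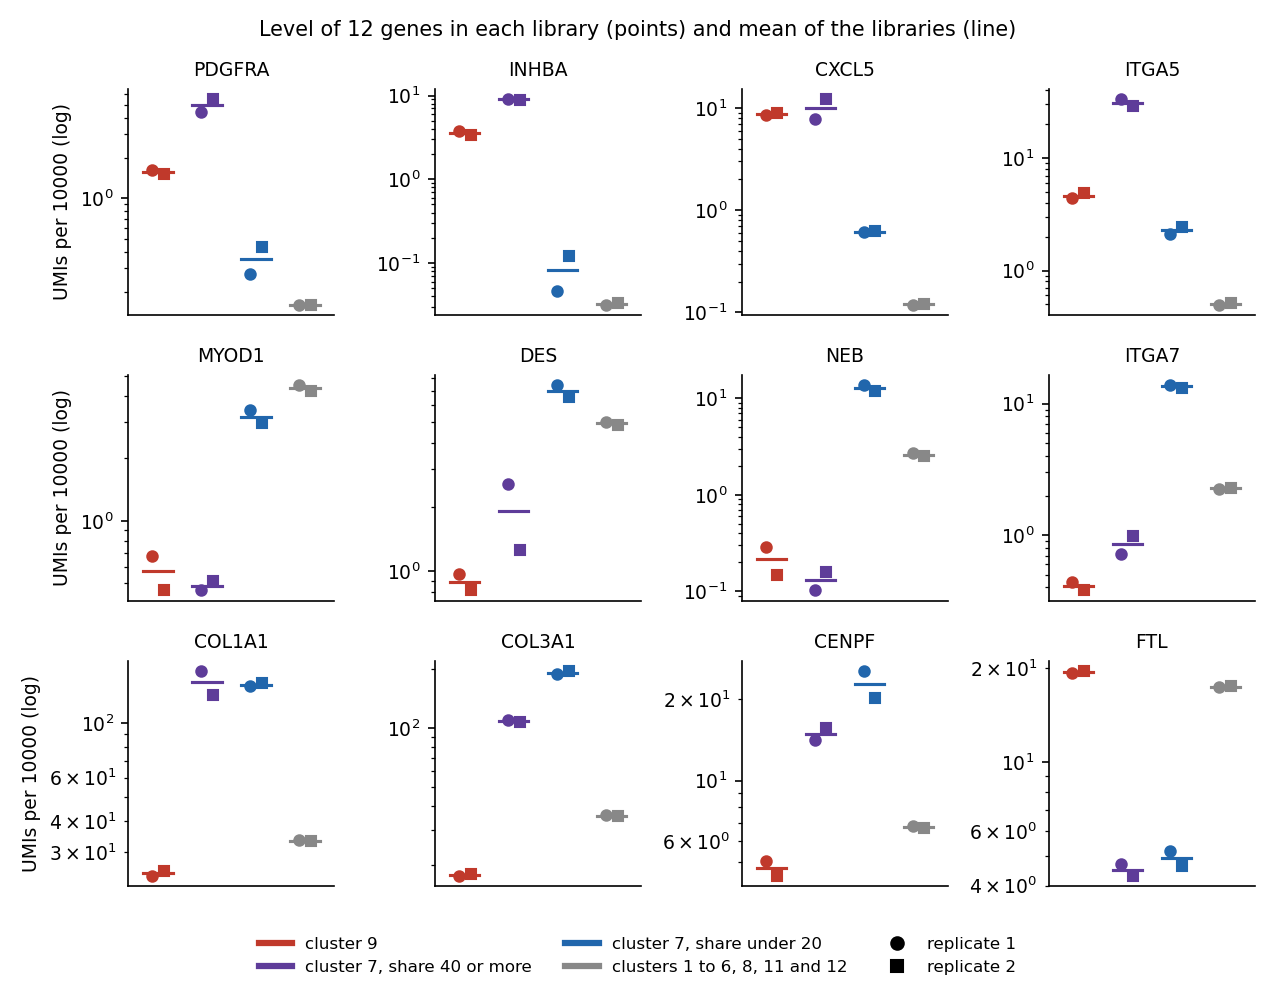
Level of 12 genes in UMIs per 10000 (log axis) in the upper and lower ranges of cluster 7, cluster 9 and the deep clusters, with a point for each library and a line at their mean. PDGFRA, INHBA and CXCL5 are high in the upper range and in cluster 9. They are among the genes used for the ranges, so their division is in part set by the selection. MYOD1 and NEB are high in the lower range and the deep clusters, and COL1A1 is high in both ranges of cluster 7.

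The upper limit and the cells included were varied, while the lower limit and the limits that chose the 27 genes were not. With the upper limit set at 30 or 50 instead of 40, the upper range held 300 or 260 cells, with MYOD1 at 0.517 or 0.467 UMIs per 10000 over both libraries. Among cells of cluster 7 with at least 2000 UMIs, 88 (28.6%) were in the upper range, with MYOD1 at 0.389 against 3.24 in the lower range and DES at 2.33 against 8.80. After the cells with the highest doublet scores were left out, the upper range held 271 cells. Only 3 of the 1298 cells of cluster 7 had such a score. This alternative could therefore hardly change the ranges and says nothing of mixed cells in them.

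Over all genes, the clusters differed at 56.3% of the 10785 genes tested by edgeR's quasi-likelihood test at a Benjamini-Hochberg adjusted p under 0.05. Cluster 9 was higher at 3204 genes (29.7%), and cluster 7 at 2864 (26.6%). The split between the directions depended on the scaling. With TMM, 52.8% of the calls were higher in cluster 9 and the median log2 ratio over all genes was 0.05. On plain UMI totals, cluster 9 was higher at 1906 genes (17.7%) and cluster 7 at 4577 (42.4%), so that 29.4% of the calls were higher in cluster 9, and the median was -0.45. In plain UMIs per 10000, called genes that were at least 4-fold apart numbered 106 in favor of cluster 9 and 1149 in favor of cluster 7. On the TMM scale these numbers were 367 and 635. Differences of this size were more often on the side of cluster 7 on both scales, to an extent that depended on the scaling.

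Among called genes with at least 1 UMI per 10000 in the higher cluster and outside the ribosomal and lipid lists, the 12 with the largest log2 ratio in favor of cluster 9 were HSPB7, COTL1, MARCKSL1, NHP2, GNG2, UNC13D, BASP1, SRM, SH3BGRL3, FTL, C11H9orf16 and NUTF2. HSPB7, a small heat shock protein, was at 2.06 and 2.05 UMIs per 10000 in cluster 9 and at 0.435 and 0.254 in cluster 7 (log2 ratio 3.13, SE 0.18, adjusted p = 6.35e-06). COTL1, an actin-binding protein, was at 1.57 and 1.60 in cluster 9 and at 0.335 and 0.238 in cluster 7 (log2 ratio 3.01, SE 0.15, adjusted p = 3.23e-06). The deep clusters, at 0.0939 and 0.0983 for HSPB7 and 0.143 and 0.155 for COTL1, lay below both clusters. In the upper range of cluster 7 HSPB7 stood at 1.33 and 0.769, nearer to cluster 9 than the lower range with 0.183 and 0.0841. HSPB7 is among the genes used for the ranges, so its division is in part set by the selection.

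Another pattern was seen in genes that the deep clusters also expressed. FTL, the ferritin light chain that stores iron, was at 19.3 and 19.6 in cluster 9, 5.03 and 4.54 in cluster 7 and 17.4 and 17.5 in the deep clusters (log2 ratio of 9 to 7 2.54, SE 0.08, adjusted p = 4.15e-07). In the upper range of cluster 7 FTL was at 4.71 and 4.29 and in the lower range at 5.15 and 4.63. NHP2, a protein of the ribonucleoproteins that modify ribosomal RNA, was at 1.79 and 1.87 in cluster 9, 0.379 and 0.443 in cluster 7 and 1.2 and 1.21 in the deep clusters (log2 ratio 2.65, SE 0.14, adjusted p = 3.18e-06). For FTL both ranges of cluster 7 stood below the deep clusters, which lay nearer to cluster 9. For NHP2 cluster 7 stood below the deep clusters and cluster 9 above them.

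By the same rule, the 12 genes with the largest log2 ratio in favor of cluster 7 were NEB, MYH3, CHRNG, XIRP1, ITGA7, CHRNA1, ACTA1, ITIH5, MYLPF, ANKRD1, ASB5 and THBS3. Most of them belong to differentiating muscle. NEB was at 0.289 and 0.149 in cluster 9 and at 10.2 and 8.26 in cluster 7 (log2 ratio -4.87, SE 0.38, adjusted p = 0.000647). MYH3, the embryonic myosin heavy chain, was at 0.144 and 0.106 in cluster 9 and at 5.10 and 4.39 in cluster 7 (log2 ratio -4.73, SE 0.17, adjusted p = 6.95e-07). The acetylcholine receptor subunit CHRNG, which muscle makes before it is innervated, was at 0.103 and 0.0731 in cluster 9 and at 3.08 and 2.73 in cluster 7 (log2 ratio -4.52, SE 0.17, adjusted p = 8.56e-07). The libraries of the clusters did not overlap in these 3 genes, as they did not in 80.6% of all genes tested.

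The laminin-binding integrin ITGA7 of muscle was at 0.438 and 0.380 in cluster 9 and at 10.8 and 9.76 in cluster 7 (log2 ratio -4.14, SE 0.12, adjusted p = 4.15e-07). It was at 0.717 and 0.993 in the upper range of cluster 7, 13.9 and 13.2 in the lower range and 2.26 and 2.27 in the deep clusters. MYH3 was at 0.205 and 0.192 in the upper and 6.93 and 6.34 in the lower range, and CHRNG at 0.256 and 0.160 in the upper and 4.10 and 3.89 in the lower range. Of the 30 muscle structure genes tested, 96.7% were called, against 56.3% over all genes. Of them, 28 were higher in cluster 7 and 1 in cluster 9, with a median log2 ratio of -3.67 against 0.05 over all genes. The exception was CKB, the brain form of creatine kinase, at 5.04 and 5.0 in cluster 9 and 1.55 and 1.78 in cluster 7. Muscle genes were thus higher in the lower than in the upper range, but a part of the lower cells held their UMIs. Of the 930 lower cells, 688 (74.0%) had a UMI of ITGA7, 412 (44.3%) of NEB and 136 (14.6%) of MYH3. The median depth of these cells was 1353 UMIs, so a cell without a UMI of a gene may still have expressed it. The muscle structure sum, at 77.1 and 67.4 UMIs per 10000 over all cells of cluster 7, was above its median over single cells, 23.9 and 20.6.

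Matrix genes were higher in cluster 7 in a different way. The summed level of all collagen genes was 85.1 ± 3.54 UMIs per 10000 (mean ± SD of the libraries) in cluster 9, 641 ± 6.04 in cluster 7 and 132 ± 1.15 in the deep clusters. Of 23 collagen genes tested, 19 were higher in cluster 7 and none in cluster 9, with a median log2 ratio of -1.40. The share called was 82.6%, against 56.3% over all genes, and 26.6% of all genes were higher in cluster 7. COL1A1, a chain of the main fibrillar collagen, was at 24.0 and 25.3 in cluster 9 and at 148 and 145 in cluster 7 (log2 ratio -2.07, SE 0.05, adjusted p = 3.87e-07). COL3A1, the chain of type III collagen, was at 17.5 and 17.9 in cluster 9 and at 175 and 177 in cluster 7 (log2 ratio -2.81, SE 0.05, adjusted p = 2.12e-07). Unlike the muscle genes, COL1A1 was high in both ranges of cluster 7, with 162 and 129 in the upper and 141 and 145 in the lower range, and COL3A1 was at 110 and 108 in the upper and 188 and 196 in the lower range. The collagen sum was 541 ± 38.4 in the upper range and 659 ± 22.3 in the lower range. COL11A1, a minor fibrillar collagen, was an exception, at 0.256 and 0.481 in the upper range, 4.02 and 4.65 in the lower range and 0.190 and 0.202 in cluster 9.

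The enzymes and proteins that assemble the matrix followed. Of 28 genes for collagen processing, 17 were higher in cluster 7 and 1 in cluster 9, a share called of 64.3% against 56.3% over all genes. Among those higher in cluster 7 was ADAMTS2, which trims procollagen, at 0.436 and 0.432 in cluster 9 and 3.11 and 3.25 in cluster 7 (log2 ratio -2.37, adjusted p = 1.76e-06). Of 22 laminin, nidogen and integrin genes, 17 were higher in cluster 7 and none in cluster 9 (77.3% called). Of 34 genes of elastic fibers and matricellular proteins, 23 were higher in cluster 7 and 3 in cluster 9 (76.5% called). Cluster 7 was higher at 10 of 22 proteoglycan genes and cluster 9 at 2, a share called of 54.5% that was near the 56.3% over all genes. The cell surface proteoglycan GPC1 was at 2.01 and 2.03 in cluster 9 and at 12.2 and 12.5 in cluster 7 (log2 ratio -2.11, adjusted p = 1.08e-06). Of 27 matrix proteases and their inhibitors, 13 were higher in cluster 7 and 2 in cluster 9, a share called of 55.6% that was also near 56.3%. Their sum was 144 ± 10.0 in the upper range, 61.7 ± 13.7 in the lower range and 41.0 ± 1.65 in cluster 9.

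**Figure D4:**
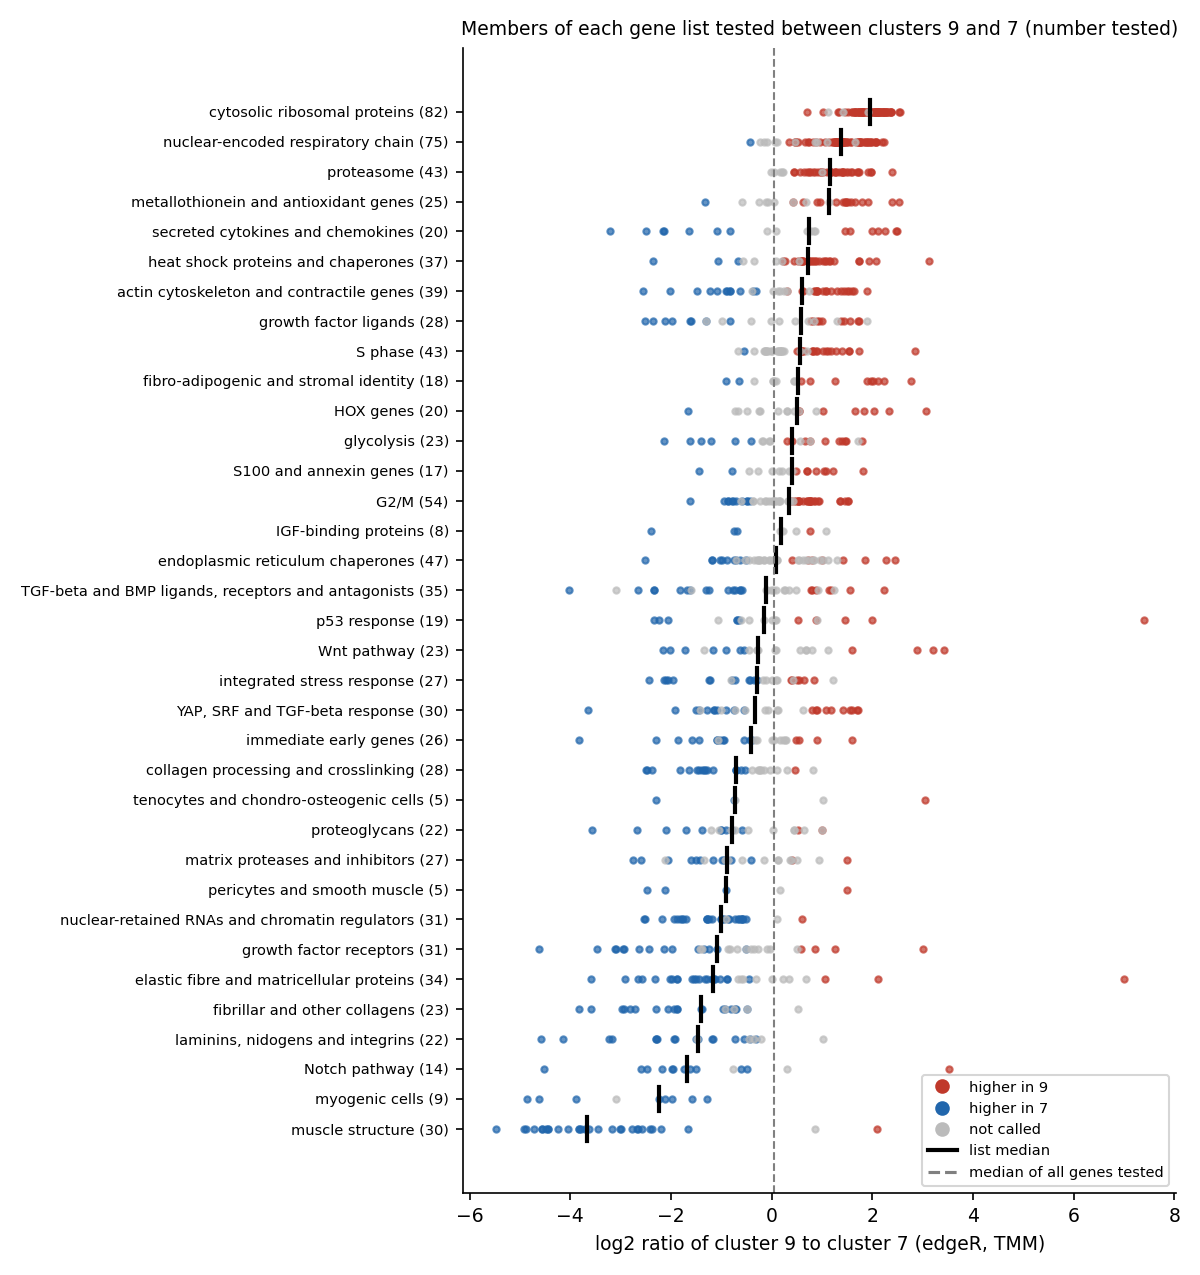
Log2 ratio of cluster 9 to cluster 7 (horizontal axis, edgeR with TMM) for each tested member of each gene list (rows, with the number tested), with points colored by call, a mark at the list median and a dashed line at the median of all genes tested. Ribosomal protein genes lie to the right with a median of 1.96, and muscle structure genes lie to the left with a median of -3.67, while the 2 points farthest to the right, PLK3 and WISP2, had 0 UMIs in cluster 7 and their fitted ratio is no measure of size.

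Genes of translation, respiration and protein turnover were mostly higher in cluster 9. Cytosolic ribosomal protein genes together had 2510 ± 7.25 UMIs per 10000 in cluster 9, 924 ± 5.24 in cluster 7 and 2657 ± 9.89 in the deep clusters, and 79 of 82 tested were higher in cluster 9 and none in cluster 7 (median log2 ratio 1.96). RPS12, a protein of the small subunit, was at 96.5 and 92.0 in cluster 9 and at 26.3 and 25.2 in cluster 7. Of 75 nuclear genes of the respiratory chain, 64 were higher in cluster 9 and 1 in cluster 7 (median 1.37), and of 43 proteasome genes, 37 were higher in cluster 9 and none in cluster 7 (median 1.16). Cluster 9 was also higher at 16 of 25 metallothionein and antioxidant genes, and cluster 7 at 1. The shares called in these 4 lists were 96.3%, 86.7%, 86.0% and 68%, against 56.3% over all genes. The medians of these 4 lists kept their sign on plain UMI totals. In the first 3 the sum in cluster 9 lay near that of the deep clusters, with 245 ± 1.13 against 255 ± 1.39 for the respiratory chain and 112 ± 1.87 against 101 ± 1.53 for the proteasome, and cluster 7 was lower, with 159 ± 10.7 and 77.3 ± 0.0189. The shallow cluster 13 was also low in both, at 173 ± 6.55 for the respiratory chain and 47.1 ± 0.722 for the proteasome, but not in ribosomal protein genes, at 3155 ± 8.68.

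Nuclear-retained RNAs and chromatin regulators went the other way, with 93.5% called against 56.3% over all genes. Of 31 tested, 28 were higher in cluster 7 and 1 in cluster 9 (median -1.0), and their sum was 35.0 ± 0.495 in cluster 9, 115 ± 9.25 in cluster 7, 39.4 ± 0.543 in the deep clusters and 44.2 ± 0.132 in the shallow cluster 13. The chromatin remodeler CHD7 was at 0.210 and 0.195 in cluster 9 and at 1.82 and 1.53 in cluster 7 (log2 ratio -2.53, SE 0.12, adjusted p = 2.63e-06). Low ribosomal protein mRNA, high collagen mRNA and a high sum of this list were found together in cluster 7 with a low number of UMIs per cell. The list includes mRNAs of chromatin proteins such as CHD7, and where in the cell the RNA lay was not measured. Within cluster 7, collagen genes were at 708 and 772 in cells under 2000 UMIs and at 477 and 523 in cells with at least 2000. Ribosomal protein genes were at 978 and 1016 in the former and at 815 and 828 in the latter. The part of depth in these levels was not tested.

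For ribosomal protein, respiratory chain, proteasome and nuclear-retained genes, both ranges of cluster 7 lay on the same side of cluster 9 and the deep clusters. The ranges differed from each other by less, although their libraries did not overlap. For metallothionein and antioxidant genes the libraries of the ranges overlapped. Ribosomal protein genes were at 847 ± 15.7 in the upper and 944 ± 5.94 in the lower range and respiratory chain genes at 142 ± 6.19 and 166 ± 14.2. Nuclear-retained RNAs and chromatin regulators were at 103 ± 4.65 and 119 ± 10.2. The shallow cluster 13, at a similar depth, had 3155 ± 8.68 for ribosomal protein, 148 ± 3.62 for collagen and 44.2 ± 0.132 for nuclear genes, outside both ranges of cluster 7. Its respiratory chain level of 173 ± 6.55 overlapped the lower range, and its proteasome level of 47.1 ± 0.722 lay below the 75.9 ± 0.462 and 78.1 ± 0.47 of the upper and lower ranges.

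The ranges were also compared across genes beyond the lists. For 4557 genes, with the genes used for the ranges left out, the log2 ratio of the upper range to cluster 9 was set against the log2 ratio of the lower range to the deep clusters. The correlation across genes was r = 0.916, and it was 0.835 and 0.831 when each ratio was taken from a different library. The groups compared share no cells, but they share the libraries and cluster 7 was drawn as 1 cluster, so the value is a description. Against the ratio of cluster 13 to the deep clusters, r was 0.231. Of these genes, 557 were at least 2-fold higher in both ranges, which was 76.2% of the 731 such genes of the upper and 76.1% of the 732 of the lower range. A further 359 were at least 2-fold lower in both, which was 53.2% of the 675 of the upper and 81.8% of the 439 of the lower range, and 0 were 2-fold apart in opposite directions.

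**Figure D5:**
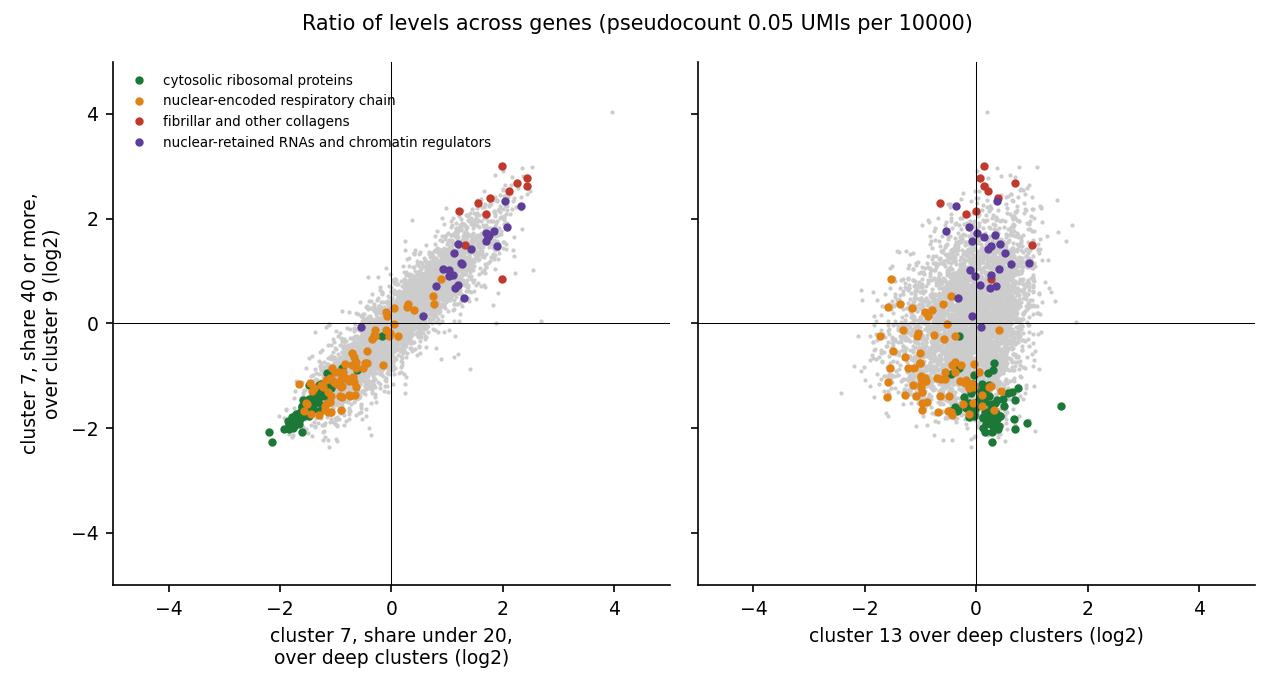
Log2 ratio of the upper range of cluster 7 to cluster 9 (vertical axis) against the ratio of the lower range of cluster 7 to the deep clusters (left) and of cluster 13 to the deep clusters (right), with each point a gene and the members of 4 gene lists in color. The points follow a rising line on the left (r = 0.916 over 4557 genes) and scatter on the right (r = 0.231).

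Among the signaling lists, Notch genes had the highest share called, 85.7% against 56.3% over all genes. Of 14 tested, 11 were higher in cluster 7 and 1 in cluster 9 (median log2 ratio -1.68), and the sum was 3.53 ± 0.0761 in cluster 9, 14 ± 0.574 in cluster 7 and 4.59 ± 0.11 in the deep clusters. The receptor NOTCH3 was at 0.215 and 0.213 in cluster 9 and at 1.77 and 1.61 in cluster 7 (log2 ratio -2.47, SE 0.11, adjusted p = 1.78e-06). The ligand DLL1 was at 0.190 and 0.136 in cluster 9 and at 1.42 and 1.39 in cluster 7 (log2 ratio -2.59, SE 0.18, adjusted p = 1.26e-05). Both ranges of cluster 7 had the higher level, with Notch sums of 12.1 ± 0.331 in the upper and 14.8 ± 0.542 in the lower range.

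Of 31 growth factor receptors, 15 were higher in cluster 7 and 4 in cluster 9, a share called of 61.3% against 56.3% over all genes. MET, the receptor of hepatocyte growth factor on satellite cells, was at 0.0782 and 0.0731 in cluster 9 and at 0.870 and 0.976 in cluster 7 (log2 ratio -3.11, SE 0.15, adjusted p = 2.82e-06). The collagen receptor DDR1 was at 0.117 in each library of cluster 9 and at 2.10 and 1.62 in cluster 7 (log2 ratio -3.47, SE 0.14, adjusted p = 1.07e-06). Of 35 genes for ligands, receptors and antagonists of the TGF-beta and BMP pathways, 15 were higher in cluster 7 and 7 in cluster 9. The share called was 62.9%. TGFB2, a ligand, was at 0.260 and 0.265 in cluster 9 and at 2.54 and 2.17 in cluster 7. In the Wnt pathway, 47.8% of 23 genes were called, under the 56.3% over all genes, with cluster 7 higher at 7 and cluster 9 at 4, and the list median of -0.26 turned to 0.18 with no filter on low counts and to 0.0049 without replicate 1. RSPO3, a secreted enhancer of Wnt signaling, was at 0.539 and 0.566 in cluster 9 and at 0.100 and 0.0738 in cluster 7 (log2 ratio 3.20, SE 0.20, adjusted p = 8.26e-06).

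Of 20 cytokines and chemokines tested, 7 were higher in each cluster, a share near the 29.7% and 26.6% over all genes. CCL2, the monocyte chemoattractant, was at 5.03 and 4.64 in cluster 9 and at 0.602 and 1.78 in cluster 7 (log2 ratio 2.48, SE 0.54, adjusted p = 0.0321). CXCL5 was higher in cluster 9 with a log2 ratio of 2.11 (SE 0.26, adjusted p = 0.00230). Neither CCL2 nor CXCL5 passed the test once cells under 2000 UMIs were left out, with adjusted p = 0.114 and 0.0506. In the upper range of cluster 7 CXCL5 was at 7.75 and 12.1, around the 8.60 and 8.92 of cluster 9. CCL2 was at 2.10 and 6.47 there, so that the libraries spread widely. Both are among the 27 genes, so high levels in the upper range are in part set by the selection. PTGIS, which makes prostacyclin, was at 0.582 and 0.495 in cluster 9 and at 6.45 and 7.71 in cluster 7 (log2 ratio -3.21, SE 0.15, adjusted p = 2.14e-06), and within cluster 7 it was at 1.08 and 0.929 in the upper and 8.12 and 10.5 in the lower range.

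Stromal identity genes that were called with TMM were mostly higher in cluster 9, but the list as a whole depended on the scaling. Of 18 tested, 9 were higher in cluster 9 and 2 in cluster 7. The share called was 61.1%, near the 56.3% over all genes. The median log2 ratio was 0.52 with TMM and 0.01 on plain UMI totals. Their sum was 24.4 ± 0.187 in cluster 9 and 22.6 ± 6.22 in cluster 7, whose libraries lay on either side of cluster 9. The transcription factor TWIST1 was at 0.362 and 0.371 in cluster 9 and at 0.0781 and 0.0738 in cluster 7 (log2 ratio 2.78, SE 0.21, adjusted p = 2.00e-05), the values in cluster 7 resting on 7 and 9 UMIs. PRRX1, a homeobox factor of limb and muscle mesenchyme, was at 5.75 and 5.51 in cluster 9 and at 1.95 and 2.09 in cluster 7 (log2 ratio 1.98, SE 0.10, adjusted p = 3.17e-06). TCF7L2, a Wnt effector used as a marker of muscle connective tissue fibroblasts, was at 0.357 and 0.345 in cluster 9 and at 1.01 and 0.878 in cluster 7 (log2 ratio -0.91, SE 0.12, adjusted p = 0.000368). In the upper range of cluster 7 PRRX1 was at 2.92 and 3.36, between its values in cluster 9 and in the lower range, 1.62 and 1.59. Of 20 HOX genes, which hold positional identity, 8 were higher in cluster 9 and 1 in cluster 7, a share called of 45%. Their median log2 ratio of 0.50 was -0.01 on plain UMI totals.

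Cell cycle genes were called at shares on either side of the 56.3% over all genes, with 51.2% in S phase and 66.7% in G2 and M phase. Of 43 genes of S phase, 21 were higher in cluster 9 and 1 in cluster 7. Their median of 0.57 fell to 0.06 on plain UMI totals. Of 54 genes of G2 and M phase, 25 were higher in cluster 9 and 11 in cluster 7, with a median of 0.35 that turned to -0.16 on plain UMI totals. The summed level of the G2 and M phase genes was 72.4 ± 4.56 in cluster 9 and 101 ± 7.11 in cluster 7, so it favored cluster 7. PCNA, the sliding clamp of DNA replication, was at 3.06 and 2.98 in cluster 9 and at 1.55 and 1.43 in cluster 7 (log2 ratio 1.53, SE 0.10, adjusted p = 1.09e-05). CENPF, a kinetochore protein, was at 5.07 and 4.45 in cluster 9 and at 22.8 and 18.8 in cluster 7 (log2 ratio -1.62, SE 0.11, adjusted p = 1.03e-05), while UBE2C, an enzyme of mitotic exit, was at 3.96 and 3.49 in cluster 9 and at 1.88 and 1.81 in cluster 7 (log2 ratio 1.52, SE 0.11, adjusted p = 1.60e-05). Within cluster 7 CENPF was at 14.1 and 15.6 in the upper and 25.4 and 20.1 in the lower range, and the deep clusters had 6.82 and 6.69. The genes of G2 and M phase thus went in both directions.

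The remaining lists were mixed. Against 56.3% over all genes, shares called were 86.5% for heat shock proteins and chaperones, 65.4% for immediate early genes and 82.1% for actin cytoskeleton genes. Of 37 heat shock proteins and chaperones, 29 were higher in cluster 9 and 3 in cluster 7, and HSPB8, among these 3, was at 0.649 and 0.541 in cluster 9 and 4.83 and 3.83 in cluster 7. Cluster 7 was higher at 13 of 26 immediate early genes and cluster 9 at 4, with EGR1 at 0.820 and 0.761 in cluster 9 and 6.02 and 5.03 in cluster 7 (log2 ratio -2.29, SE 0.12, adjusted p = 2.92e-06). Of 39 actin cytoskeleton genes, 20 were higher in cluster 9, including the intermediate filament gene VIM at 149 and 150 against 69.2 and 68.8, and 12 were higher in cluster 7, including the muscle filamin FLNC at 2.21 and 2.25 against 19.5 and 18.0. Endoplasmic reticulum chaperones summed to 177 ± 1.32 in cluster 9 and to 176 and 269 in the libraries of cluster 7, so that the libraries of cluster 7 differed from each other by more than the clusters did in replicate 1. Of the 93 adipogenic and lipid genes tested, 16 were higher in cluster 9 and 33 in cluster 7. The share called, 52.7%, was near the 56.3% over all genes.

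Since cluster 7 was shallow and cluster 9 deep, the ratio of 9 to 7 was tested against the ratio of the deep to the shallow clusters. The edgeR interaction called 47.3% of 11359 genes at an adjusted p under 0.05, with 2857 genes (25.2%) whose ratio lay above that of the other clusters and 2517 (22.2%) whose ratio lay below it. Deep and shallow clusters themselves differed at 3.71% of the genes. The shallow reference pooled 994870 UMIs of cluster 13, 1376733 of cluster 14 and 219359 of cluster 15, and these clusters were not alike. Proteasome genes were at 90.9 ± 5.45 in the pool and 47.1 ± 0.722 in cluster 13 alone, and respiratory chain genes at 253 ± 13.6 and 173 ± 6.55. The share is thus that of the pool and not of a single cluster at the depth of cluster 7. Of the genes called higher in cluster 9, 2599 (81.1%) were also called above in the interaction, and of those higher in cluster 7, 2194 (76.6%) were called below, where both comparisons use the same sums of clusters 9 and 7. Of the lists, 79 ribosomal protein genes were called above and none below, 61 respiratory chain genes were called above and 1 below, 17 collagen genes were called below and none above, and 26 muscle structure genes were called below and 1 above. The largest interactions in favor of cluster 9 were those of CCL2, CXCL5 and HSPB7, and the largest in favor of cluster 7 were those of NEB, CHRNG and MYH3.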

How the data were processed

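The authors used Cell Ranger 3.0.2 with the bovine assembly ARS-UCD1.2 for alignment, UMI counting and cell calling, pooled both libraries after thinning reads to equal mapped depth per cell, and deposited UMI counts for 21867 genes in 19096 cells. They also deposited a table with, for each of their 15 clusters, an average per gene, which is a UMI sum scaled to a common total and is treated here as a score, and log2 fold changes and adjusted p-values of each cluster against all other cells, which were not used. No column of cluster numbers per cell was used. Since the averages convert to whole UMI sums, they fixed the cluster of each cell by elimination in 30 rounds, and the sums of the assigned cells matched all 252240 deposited pairs of gene and cluster.

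UMIs were summed per library and cluster, and cluster 9 was compared with cluster 7 with edgeR 4.0.16 in R 4.3.3 (TMM, filterByExpr, robust quasi-likelihood test, Benjamini-Hochberg adjustment over all genes tested, called under 0.05), as 2 sums against 2. An interaction in the same model over 8 sums set the ratio against that of the deep to the shallow clusters. The test was run on simulated data before use. Each library gave a sum of both clusters, which pairs the sums by library number, and across the 5922 genes that reached 20 UMIs in every sum the library ratios on the log2 scale correlated at 0.20 between the clusters. The main model had no block.

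Levels are UMIs per 10000 UMIs, and since no gene lengths were used they are compared between groups and not between genes. Intervals between libraries cover counting and library preparation only. A list gene was counted once for each Ensembl gene with its symbol, and the feature list held none of the mitochondrially encoded genes. The members and the gene lists were chosen with earlier results of these data known. The genes named are the 12 with the largest ratio in each direction with at least 1 UMI per 10000 in the higher cluster, up to 4 called members of each list, the 6 largest interactions in each direction, the 10 genes most shared by both clusters, and type-defining markers. One gene that this rule names is not reported here. COL1A1, COL3A1, FN1, PRRX1, TCF7L2 and CKB were named after their values had been seen. The 27 genes and the ranges of cluster 7 were also set after seeing the data, and levels across genes there had a pseudocount of 0.05 and a minimum of 0.3 UMIs per 10000.

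Doublets were kept. Scrublet in scanpy 1.11.5 set thresholds of 0.740 and 0.739 that called 0 cells and 1 cell, so that as an alternative the 8% of cells with the highest scores, 1583 cells, were left out. In the series 27 barcodes occurred in both libraries. Other alternatives were no TMM, totals without ribosomal protein and collagen genes, DESeq2 1.42.0, no filter, no cells under 2000 UMIs, no shared barcodes, the library as a block, single libraries and cluster 13 alone as the shallow group. No sequences were used here.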

Additional observations from a re-analysis of the deposited data

Results flagged for a closer look

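The difference of cluster 9 from cluster 7 was set beside that of the other deep clusters from the other shallow clusters, and genes are given here whose ratios differed between these pairs by the edgeR interaction test with Benjamini-Hochberg adjustment. The ratio of 9 to 7 lay above that of the other pair at 2857 genes and below it at 2517 genes, of 11359 tested.

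The 6 largest log2 differences among genes higher in cluster 9 were 5.91 for the chemokine CCL2 (adjusted p = 0.00241), 5.29 for CXCL5, 5.13 for the small heat shock protein HSPB7, 4.49 for the activin subunit INHBA, 4.39 for the actin-binding COTL1 and 4.25 for the secreted proteoglycan ESM1. In all 6 the shallow clusters lay above the deep ones, as for CXCL5 with 1.17 and 0.945 UMIs per 10000 against 0.119 and 0.120, while cluster 9 lay above cluster 7. In the shallow cluster 13, 44 of 602 cells had 40 or more UMIs per 10000 in the genes that mark cluster 9, and their part in these differences was not tested.

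The 6 largest in the other direction were -5.97 for NEB (adjusted p = 8.54e-05), -5.44 for the acetylcholine receptor subunit CHRNG, -5.25 for the embryonic myosin MYH3, -4.48 for the actin-binding XIRP1, -4.30 for the integrin ITGA7 and -4.17 for the receptor subunit CHRNA1. Cluster 7 had NEB at 10.2 and 8.26 UMIs per 10000, cluster 9 at 0.289 and 0.149, and the deep clusters, at 2.69 and 2.56, stood above the shallow clusters with 1.29 and 1.11. No group held 4 or more libraries, so no search for an outlying library was made.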

How the results depend on the processing

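The counts of genes called between clusters 9 and 7 stayed within 1.5 times their main values of 3204 and 2864 with DESeq2 (2506 and 2402), no filter on low counts (3757 and 2718), the library as a replicate block (3188 and 2822), no shared barcodes (3207 and 2860), totals without ribosomal protein and collagen genes (2357 and 3901) and the highest doublet scores left out (3198 and 2908, an alternative added after seeing the data). Without TMM they were 1906 and 4577, and the interaction counts were 1717 above and 4146 below in place of 2857 and 2517. Without cells under 2000 UMIs, the counts were 2374 in favor of cluster 9 and 1867 in favor of cluster 7. The replicate block gave interaction counts of 2944 and 2544 and ended the call of 5 of 192 named genes, ADAM19 (adjusted p = 0.0530), SLC7A1 (0.0529), CKS1B (0.0606), S100B (0.0681) and PDGFRB (0.0629), and gave SFRP2 a call (0.00605). Cluster 13 alone as the shallow group gave 1998 and 2091.

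Genes that changed sign had no call in the main comparison. Without TMM the log2 ratio of 9 to 7 was -0.47 for CD248, -0.34 for ACTA2 (adjusted p = 0.0110), -0.052 for DCN and -0.47 for LUM. On totals without ribosomal protein and collagen genes it was -0.29 for CD248, -0.15 for ACTA2 and -0.28 for LUM. Without cells under 2000 UMIs it was -0.27 for CD248, -0.071 for ACTA2 and -0.31 for LUM, and DESeq2 gave -0.0036 for LUM. The cause was not tested. List medians turned sign without TMM for G2 and M phase (-0.16), HOX genes (-0.01), glycolysis (-0.10), S100 and annexin genes (-0.10), IGF-binding proteins (-0.31) and endoplasmic reticulum chaperones (-0.42). On totals without ribosomal protein and collagen genes the last pair were -0.12 and -0.23, and without cells under 2000 UMIs they were -0.41 and -0.38. With no filter the medians turned for TGF-beta and BMP genes (0.023), Wnt genes (0.18) and markers of tenocytes (0.00053) and epithelial cells (0.96). Without replicate 1 they turned for Wnt genes (0.0049) and endoplasmic reticulum chaperones (-0.35), as did the ratios of CD248 (-0.33) and LUM (-0.23).

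Of 192 named genes, 9 lost their call without TMM, 12 with DESeq2, and 24 of 185 without cells under 2000 UMIs. A single library leaves no residual degrees of freedom, so counts could not be tested without replicate 1 or 2, and the planned doublet calls could not be used. Cluster 7 had 896608 and 1219037 UMIs in its libraries against 14198397 and 12183443 in cluster 9, which limits low genes in cluster 7, and 1 calf limits every comparison to this culture.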

Other observations

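Cells of cluster 9 also differed in their share of the 27 genes that mark the cluster. Of the 192 cells with 20 to 40 UMIs per 10000 in these genes, 51.0% were among the 8% of cells with the highest doublet scores, against 6.36% of the 881 cells with 40 or more. The median UMIs per cell were 28571.5 and 22340 in the 2 ranges. The part of doublets in this range was not tested. Cells with 40 or more were found outside clusters 9 and 7 too, with 88 of 1010 in cluster 10, 44 of 602 in cluster 13, 23 of 446 in cluster 14 and 15 of 317 in cluster 15. These cells had a median of 31, 9, 23 and 3 UMIs in the 27 genes, against 139 in cluster 9. The count in cluster 15 thus rests on very few UMIs per cell.

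Lysosomal genes were not among the lists, but CTSD, a lysosomal protease, was at 1.86 and 1.87 UMIs per 10000 in cluster 9, 21.8 and 24.3 in cluster 7 and 7.32 in the mean of the deep clusters (edgeR log2 ratio -3.12, SE 0.10, adjusted p = 4.25e-07), and IGF2R, a receptor that carries enzymes to the lysosome, was at 1.03 and 1.08 in cluster 9 and at 6.57 and 6.58 in cluster 7 (log2 ratio -2.13, SE 0.10, adjusted p = 1.80e-06). Both were chosen after their values had been seen. IGF2R was at 5.84 and 6.15 in the upper and 6.94 and 6.87 in the lower range of cluster 7.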
